A study of Mus musculus with 6 samples.

Results

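The 9 genes described here, Pck1, Fbp1, Pcx, Pklr, Pfkfb1, Gys2, Pygl, Ppp1r3c and Slc2a2, carry the control of glucose and glycogen in the liver. They were taken by gene symbol from a table of 16375 genes; each symbol matched a single row, and all 9 passed the low-count filter. RNA was sequenced from the livers of mice given inosine by intraperitoneal injection (3 libraries, inosine 1 to 3) and of control mice (3 libraries, control 1 to 3). Inosine is the purine nucleoside formed when adenosine loses its amino group, and the series title places the work in liver RNA editing and cancer cachexia. The sources used here do not state strain, sex, age, dose, feeding state, time of day, what the control mice received or whether any animal carried a tumour. Nor do the labels tie each library to a separate mouse, so a p-value speaks for the spread among the 6 libraries. Whole liver was sequenced, so fewer cells of a type and less RNA per cell cannot be told apart.

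The liver releases glucose into the blood in fasting and stores it as glycogen after a meal. Gluconeogenesis rebuilds glucose from lactate, amino acids and glycerol, glycolysis runs the other way, and glycogen is built by a synthase and taken apart by a phosphorylase. Glucagon acts through cyclic AMP and glucocorticoids through their receptor to raise transcription of gluconeogenic genes, and insulin opposes both, so the mRNA of these genes is known to follow feeding and the time of day.

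None of the 9 genes differed between inosine-treated and control liver past the threshold of edgeR's quasi-likelihood test (adjusted p under 0.05 over 12326 genes tested), where 0.00811% of all genes tested were called. DESeq2 also called 0 of the 9, and in the authors' deposited table the q-values of the 9 ran from 0.37 to 1.0. At an unadjusted p under 0.05 edgeR had 1 of the 9, Gys2, against 14.5% of all genes tested. The fold changes were small, with 8 of the 9 between -0.24 and 0.27 on the log2 scale and Ppp1r3c at -0.76. Single libraries moved some of these values. Without control 1 Pck1 was called by DESeq2, and the fold changes of Pfkfb1 and Ppp1r3c changed sign. Without control 2 the edgeR fold change of Pck1 fell from 0.25 to 0.05.

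The promoters of Pck1 and Ppp1r3c are shown because these genes had the widest gap between control 1 and the other controls among the gluconeogenic enzymes and among all 9, in that order. Each is the 250 bases before the transcription start, from RefSeq on GRCm38.p6, 5′ to 3′ in the direction of transcription. Capitals mark ACGTCA, the core of the cyclic AMP response element, in Pck1, and CACGTG, the E-box bound by clock factors and, as a pair, by the glucose-sensing factor ChREBP, in Ppp1r3c. The first lies at chr2:173152823-173153072 on the plus strand and the second at chr19:36736605-36736854 on the minus strand.
Pck1: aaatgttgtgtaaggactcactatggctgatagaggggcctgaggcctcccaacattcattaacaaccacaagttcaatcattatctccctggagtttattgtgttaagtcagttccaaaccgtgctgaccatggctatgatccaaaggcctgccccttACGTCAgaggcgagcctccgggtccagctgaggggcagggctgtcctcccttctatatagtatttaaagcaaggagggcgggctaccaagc
Ppp1r3c: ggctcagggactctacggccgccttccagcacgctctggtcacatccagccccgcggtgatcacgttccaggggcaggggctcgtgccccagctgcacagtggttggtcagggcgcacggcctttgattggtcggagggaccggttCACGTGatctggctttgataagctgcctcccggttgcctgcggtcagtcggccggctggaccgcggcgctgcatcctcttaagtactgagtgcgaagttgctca
Promoters of 8 of the 9 genes, in 13 windows, were in the RefSeq table and were searched on both strands. ACGTCA occurred in 1 window, 91 bases before the start of Pck1, against 6.47% of the 32851 promoter windows of all genes. CACGTG occurred in 2 windows, 104 bases before the start of Ppp1r3c and 248 bases before a start of Pcx, against 6.02% of all windows. GTAAACA, a FoxO binding motif, was in 0 of the 13 windows and in 3.17% of all. No 2 matches overlapped, and a match is a run of letters, not a shown binding site.

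Levels between genes are set side by side in TPM, the authors' values per transcript length. Pck1, which makes phosphoenolpyruvate in the committed step of gluconeogenesis, ranked 55th of 16375 genes by mean level, and Fbp1, the fructose-bisphosphatase of the same pathway, ranked 78th. Pck1 averaged 2213 ± 97 TPM in inosine and 1795 ± 625 TPM in control (SD, n = 3 each), and Fbp1 1592 ± 189 TPM in inosine and 1346 ± 207 TPM in control. Pcx, Slc2a2, Pygl, Gys2 and Pklr formed a middle tier between 128 and 231 TPM in all 6 libraries, and their ranges over the libraries overlapped one another. Pfkfb1 averaged 26.5 ± 4.1 TPM in inosine and 28.6 ± 12.2 TPM in control, and Ppp1r3c 14.2 ± 8.1 TPM in inosine and 23.9 ± 20.9 TPM in control. Those lowest genes overlapped in control but not in inosine, where the lowest Pfkfb1 library (22.96 TPM) lay just above the highest Ppp1r3c library (22.65 TPM). Pck1 and Fbp1 likewise overlapped in control only, and in inosine the lowest Pck1 library (2121 TPM) lay above the highest Fbp1 library (1795 TPM). Together the 9 genes held between 0.710% and 0.741% of the counts in the inosine libraries and between 0.526% and 0.779% in the control libraries.

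The following values are TMM-scaled CPM, counts scaled by library totals that edgeR adjusted, the scale of the test. A fold change is inosine over control on the log2 scale with its standard error (SE), and the 95% interval is that of the fold itself.

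Among the gluconeogenic enzymes, Pck1 (chromosome 2, 172994866 to 173001067 on GRCm39, plus strand) measured 3728, 3841 and 4321 CPM in inosine 1 to 3, against 4486, 2365 and 3148 CPM in control 1 to 3. The inosine libraries lay close together, and the groups overlapped because control 1 was the highest of the 6. The fold change was 0.25 (SE 0.22), a 1.19-fold level with an interval of 0.83 to 1.70 (edgeR adjusted p = 0.63). Without control 1 all 3 inosine libraries lay above both remaining controls, and the fold change was 0.53 (95% interval 0.12 to 0.93 on the log2 scale). DESeq2 then called Pck1 (adjusted p = 0.017), where it called 4.85% of genes, while edgeR did not (adjusted p = 0.18), where 0.449% of genes were called. Without control 2, the lowest of the 6, the fold change was instead 0.05 (edgeR adjusted p = 0.95). The size of the Pck1 difference thus rested on single controls.

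Fbp1 (chromosome 13, 63012567 to 63036112, minus strand) measured 1373, 1487 and 1393 CPM in inosine, against 1358, 1073 and 1336 CPM in control. All inosine libraries lay above all controls on this scale, by a narrow gap between inosine 1 and control 1, and in TPM the groups overlapped. This gave a fold change of 0.17 (SE 0.12, edgeR adjusted p = 0.54), with an interval of 0.93 to 1.38 for the fold. Pcx, pyruvate carboxylase, which feeds pyruvate carbon into the pathway in mitochondria (chromosome 19, 4560500 to 4671780, plus strand), measured 557, 632 and 565 CPM in inosine, against 625, 505 and 520 CPM in control. Its groups overlapped, again with control 1 above the other controls, at a fold change of 0.09 (SE 0.12, edgeR adjusted p = 0.76). All 3 gluconeogenic enzymes thus had fold changes above 0, with intervals that include no change.

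Pklr, the pyruvate kinase of liver glycolysis and a known target of ChREBP (chromosome 3, 89043429 to 89054122, plus strand), measured 282, 238 and 281 CPM in inosine, against 312, 288 and 321 CPM in control. All inosine libraries lay below all controls, while in TPM the groups overlapped. The fold change was -0.20 (SE 0.10, edgeR adjusted p = 0.40), a 0.870-fold level with an interval of 0.741 to 1.02. Over the 9 genes, groups did not overlap for 2 that were higher, Fbp1 and Gys2, and 1 that was lower, Pklr, against 11.1% and 9.8% of all genes tested. In TPM 0 of the 9 had groups apart, against 16.9% of all genes tested.

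Pfkfb1, the bifunctional enzyme that makes and removes the activator of phosphofructokinase and so switches liver between glycolysis and gluconeogenesis (chromosome X, 149370441 to 149426874, plus strand), measured 29.8, 24.2 and 39.7 CPM in inosine, against 51.4, 26.1 and 28.5 CPM in control. Control 1 stood at 1.97 times the mean of the other controls in TPM, and the next library was inosine 3. Its fold change came to -0.18 (SE 0.28, edgeR adjusted p = 0.80), with an interval of 0.566 to 1.38 for the fold, and it was 0.20 without control 1. Within a library, the ratio of Pck1 to Pklr in TPM was 13.5, 16.5 and 15.7 in inosine, against 14.7, 8.42 and 10.001 in control. Control 1 lay inside the inosine range, and the other controls lay below it.

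**Figure D1:**
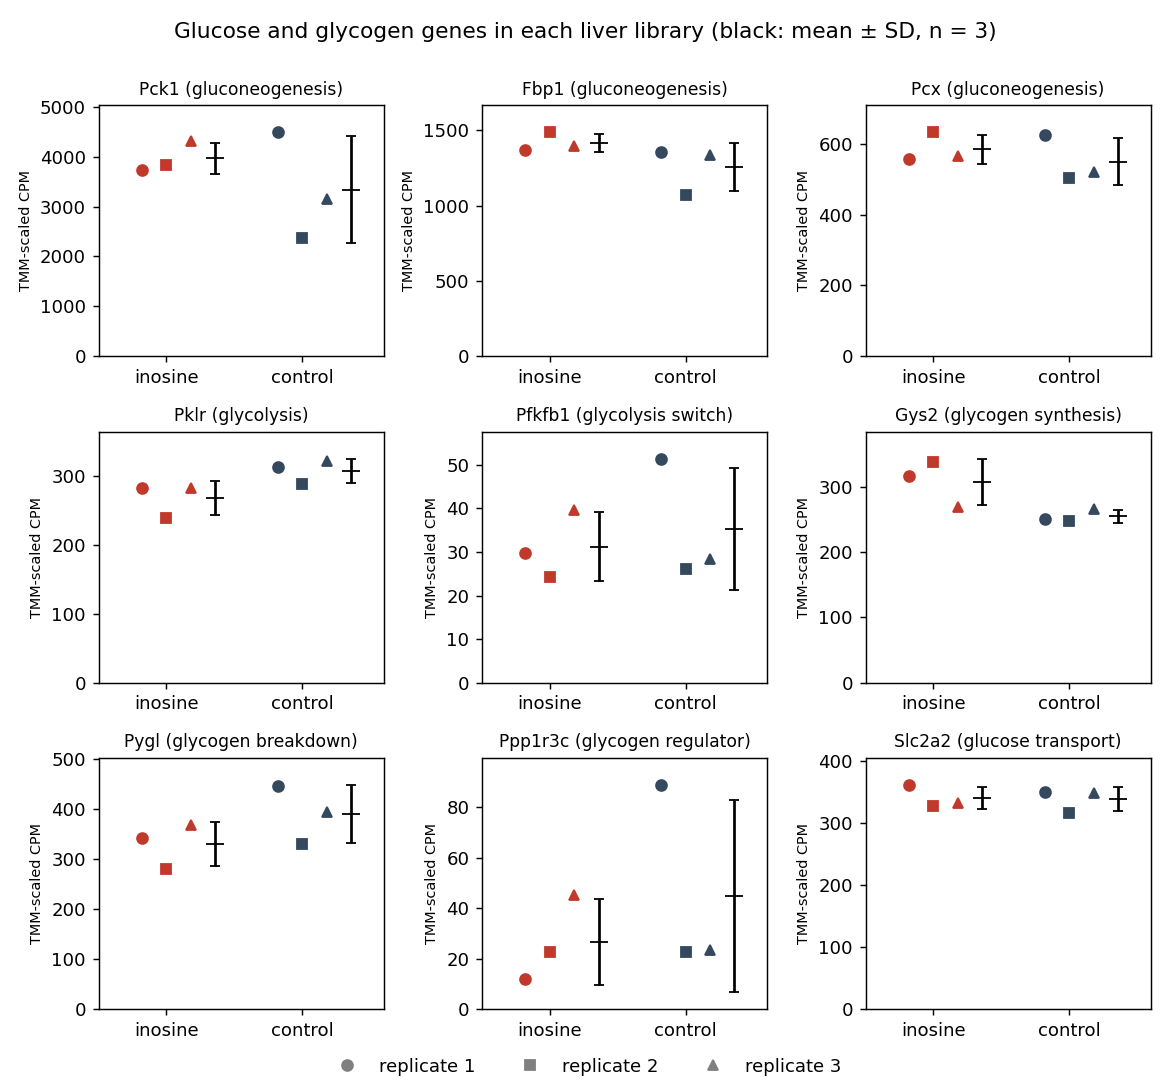
TMM-scaled CPM (vertical axes, each from 0) of the 9 genes in the 3 inosine and 3 control libraries; each symbol is a library, and the black bar is the mean ± SD. Control replicate 1 (circle) is the highest of the 6 libraries for Pck1, Pygl, Pfkfb1 and Ppp1r3c, while the groups stand apart for Fbp1, Pklr and Gys2.

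Gys2, the liver glycogen synthase (chromosome 6, 142368338 to 142418856, minus strand), had the smallest p of the 9. It measured 316, 338 and 269 CPM in inosine, against 251, 247 and 266 CPM in control. All inosine libraries lay above all controls, but inosine 3 only just above control 3, and in TPM inosine 3 lay among the controls at 137 TPM, against 138, 128 and 143 TPM in control. The fold change was 0.27 (SE 0.11), a 1.21-fold level with an interval of 1.02 to 1.43 (unadjusted p = 0.032, edgeR adjusted p = 0.30). The authors' deposited table gives Gys2 a log2 fold change of 0.28 and a q-value of 0.37. Without inosine 3, DESeq2 called Gys2 (adjusted p = 0.040, log2 fold change 0.36), and edgeR did not; over all alternative fits its adjusted p ran from 0.040 to 0.65.

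Pygl, the liver glycogen phosphorylase (chromosome 12, 70237589 to 70274457, minus strand), measured 342, 280 and 367 CPM in inosine, against 445, 330 and 394 CPM in control. The groups overlapped, with control 1 highest and inosine 2 lowest. The fold change was -0.24 (SE 0.14, edgeR adjusted p = 0.47), a 0.846-fold level with an interval of 0.672 to 1.07. The ratio of Pygl to Gys2 within a library, in TPM, was 1.0, 0.769 and 1.26 in inosine, against 1.64, 1.24 and 1.37 in control. It averaged 1.01 ± 0.25 in inosine and 1.42 ± 0.21 in control (SD, n = 3 each), and inosine 3 lay within the control range.

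Ppp1r3c, the subunit that brings protein phosphatase to glycogen and there favours storage (chromosome 19, 36709131 to 36714004, minus strand), measured 11.7, 22.6 and 45.1 CPM in inosine, against 88.9, 22.4 and 23.3 CPM in control. Both groups were widely spread, and control 1 stood alone at 4.05 times the mean of the other controls in TPM. At -0.76 (SE 0.63, edgeR adjusted p = 0.60), the fold change had an interval of 0.215 to 1.62 for the fold, which leaves a wide range of changes in either direction. Without control 1 the fold change was 0.21 (edgeR adjusted p = 0.83), so no direction is given. The largest Ppp1r3c value of a group was 3.46 times the smallest in inosine and 4.20 times in control, in TPM, against 1.15 and 1.43 times for Pygl.

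Slc2a2, the main glucose transporter of the hepatocyte membrane (chromosome 3, 28752052 to 28782510, plus strand), measured 362, 328 and 332 CPM in inosine, against 350, 316 and 349 CPM in control. The groups overlapped throughout, at a fold change of 0.01 (SE 0.09, edgeR adjusted p = 0.98). Its interval, 0.870 to 1.16 for the fold, was the narrowest of the 9 on the log2 scale and leaves out a change of 1.2-fold or more in either direction.

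**Figure D2:**
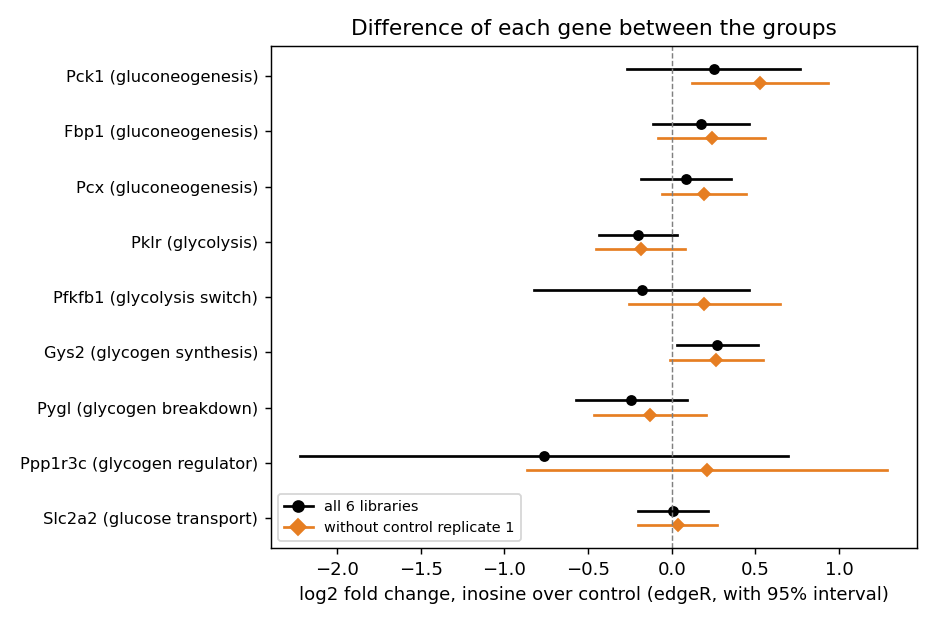
log2 fold change of inosine over control (horizontal axis) of each gene with its 95% interval, from edgeR with all 6 libraries (black circles) and without control replicate 1 (orange diamonds). With all libraries only the interval of Gys2 lies wholly above 0, and without control 1 that of Pck1 does, while Pfkfb1 and Ppp1r3c move from below 0 to above it.

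Control 1 differed from the other controls beyond these genes. It was the highest of the 6 libraries for 4 of the 9, Pck1, Pygl, Pfkfb1 and Ppp1r3c, against 17% of all genes tested, and it was at least 1.5 times the next control for 2 of the 9 against 2.93%. Among 20 tested genes of the circadian clock and of glucocorticoid induction, 7 met the latter measure. Fkbp5, a classic glucocorticoid-induced gene, measured 97.8, 164 and 197 CPM in inosine, against 197, 25.5 and 31.4 CPM in control. Tat, tyrosine aminotransferase, which is induced by glucocorticoids and cyclic AMP, measured 2657, 3313 and 4522 CPM in inosine, against 3841, 1492 and 2476 CPM in control. For Fkbp5 and Tat, as for Pck1, both other controls lay below every inosine library and control 1 did not. Other glucocorticoid-induced genes of the list were divided. Tsc22d3 and Zbtb16 were, like Fkbp5, among the 7, but control 1 was not the highest control for Sgk1, Mt1 or Mt2. Their log2 CPM minus the mean over the 6 libraries was 0.20, -0.53 and 0.47 in control 1 to 3 for Sgk1. It was -0.16, 0.57 and -0.76 for Mt1, and 0.24, 0.47 and -1.09 for Mt2. Igfbp1, a secreted protein gene repressed by insulin, measured 34.9, 28.0 and 19.6 CPM in inosine, against 83.3, 4.32 and 11.4 CPM in control, so control 1 was highest and the other controls lowest. Arntl, the clock activator also called Bmal1, measured 1.80, 1.60 and 3.12 CPM in inosine, against 11.0, 1.56 and 0.875 CPM in control. These 4 genes were chosen after their values were seen, and the part of the clock, feeding or glucocorticoid state in the values of the 9 genes was not tested.

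**Figure D3:**
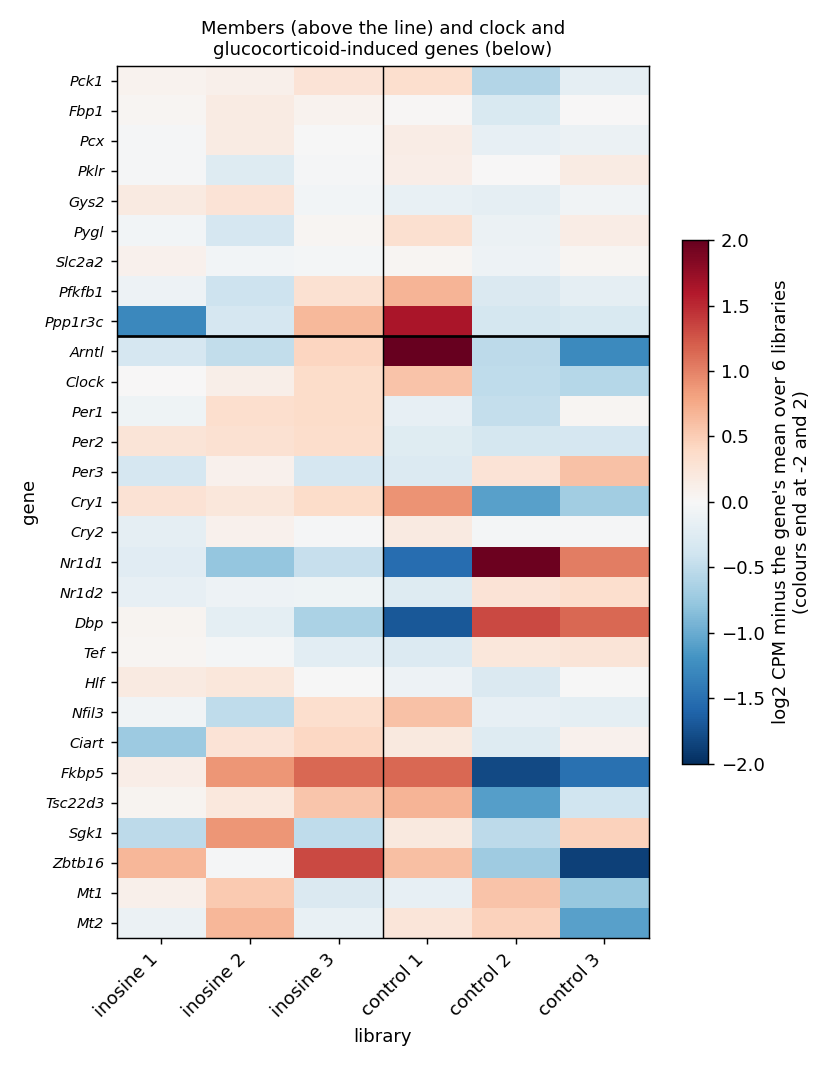
log2 CPM of each gene minus its mean over the 6 libraries (colour), by library (columns, inosine left), for the 9 genes above the line and 20 clock and glucocorticoid-induced genes below it. Control 1 is dark red for Ppp1r3c and Arntl and dark blue for Dbp and Nr1d1, and for Fkbp5 it lies with inosine 2 and 3 and far from controls 2 and 3.

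Hepatocyte markers were abundant, with albumin (Alb) between 54528 and 71374 TPM in inosine and between 45337 and 65529 TPM in control. Totals ran from 16862048 to 17505035 counts per library in inosine and from 16383896 to 17009895 in control. The 7 hepatocyte markers summed to between 90240 and 126244 TPM in inosine and between 80380 and 105849 TPM in control, and 0 of them had an unadjusted edgeR p under 0.05. Periportal markers (8 genes), which mark the zone where gluconeogenesis is strongest, summed to between 4563 and 5821 TPM in inosine and between 4411 and 6580 TPM in control. Of these, 1 gene, lower, had an unadjusted edgeR p under 0.05. Pericentral markers (8 genes) summed to between 11870 and 13630 TPM in inosine and between 9082 and 12907 TPM in control. None of those had an unadjusted edgeR p under 0.05. The 5 erythroid markers summed lower in every inosine library, between 1249 and 2382 TPM, than in any control library, between 2950 and 3556 TPM. All 5 had an unadjusted edgeR p under 0.05, lower, against 7.26% of all genes tested. After adjustment edgeR called 0 of them, and DESeq2 called 4 lower, against 1.96% of all genes it tested in either direction. The 8 Kupffer markers summed to between 201 and 243 TPM in inosine and between 206 and 275 TPM in control, the 8 sinusoidal endothelial markers to between 83.8 and 132 TPM in inosine and between 115 and 131 TPM in control, and the 8 stellate markers to between 114 and 198 TPM in inosine and between 161 and 180 TPM in control. In each of these 3 lists the group ranges overlapped and 2 genes, lower, had an unadjusted edgeR p under 0.05. The 5 cholangiocyte markers summed to between 40.2 and 68.9 TPM in inosine and between 32.3 and 41.0 TPM in control, with overlapping ranges. Among them 1 gene, higher, had an unadjusted edgeR p under 0.05, and DESeq2 called 1 higher. The 4 exocrine pancreas markers summed to between 11.7 and 25.5 TPM in inosine and between 21.1 and 34.0 TPM in control, with overlapping ranges. Nearly all of each sum was Cela1, an elastase gene, at 11.7, 14.5 and 25.4 TPM in inosine and 20.9, 34.0 and 27.9 TPM in control. The defining marker Cpa1 was listed at 0 TPM in 5 of the 6 libraries and at 0.12 TPM in control 3. The part of other cell types in the values of the 9 genes was not tested.

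The rest of the pathway was read from lists of genes that hold the 9 as well. Of 19 gluconeogenesis genes tested, 0 were called by edgeR or DESeq2 and 0 had an unadjusted edgeR p under 0.05. Their median fold change was 0.01, against -0.01 over all genes tested. In this list 11 genes were above 0 and 8 below, against 5939 and 6387 over all genes tested. The members of smallest p outside the 9 were Mpc2, a subunit of the mitochondrial pyruvate carrier, at 0.20 (SE 0.09, edgeR adjusted p = 0.37), and Pck2, the mitochondrial counterpart of Pck1, at -0.54 (SE 0.26, edgeR adjusted p = 0.39). Pck2 was scarce, at 2.18 ± 0.16 CPM in inosine and 3.17 ± 1.01 CPM in control (SD, n = 3 each).

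Of 31 genes of glycolysis and pyruvate oxidation, edgeR and DESeq2 called 0, and 2 higher and 1 lower had an unadjusted edgeR p under 0.05. Without control 1 DESeq2 called 2, Pfkfb2 among them. Pdk2, a kinase that shuts off pyruvate dehydrogenase, measured 118, 105 and 108 CPM in inosine, against 134, 123 and 139 CPM in control, with the groups apart (fold change -0.26, SE 0.09, edgeR adjusted p = 0.25). Pfkfb2, a bifunctional enzyme related to Pfkfb1, was at 0.40 (SE 0.15, edgeR adjusted p = 0.31). The median of the list was -0.04.

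Among 17 genes of glycogen synthesis and breakdown, edgeR and DESeq2 called 0, while Gys2, higher, and Phkb, lower, had an unadjusted edgeR p under 0.05. Phkb and Phka1 encode subunits of phosphorylase kinase, which activates glycogen phosphorylase, and their fold changes were -0.20 (SE 0.08, edgeR adjusted p = 0.32) and -0.27 (SE 0.12, edgeR adjusted p = 0.36). The median was -0.07, with 5 genes above 0 and 12 below, against 5939 and 6387 over all genes tested. No list was tested as a set. Of 15 glycogen regulators, 0 were called by edgeR or DESeq2 and 0 had an unadjusted edgeR p under 0.05. Prkaa2, a catalytic subunit of the energy-sensing kinase AMPK, was at 0.18 (SE 0.08), and Gsk3b, a kinase that inactivates glycogen synthase, at -0.28 (SE 0.13).

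In the list for hexose transport and the entry of fructose and galactose, which holds Slc2a2, edgeR called 0 of 14 genes, with 1 higher and 4 lower at an unadjusted p under 0.05. DESeq2 called 1, Galt, the uridylyltransferase of galactose breakdown, against 1.96% of all genes it tested. Galt measured 27.2, 24.0 and 25.2 CPM in inosine, against 39.8, 36.1 and 33.7 CPM in control. The groups were well apart, at a fold change of -0.52 (SE 0.09, edgeR adjusted p = 0.087, DESeq2 adjusted p = 0.010). The DESeq2 call was lost in 3 of the 6 omissions of a library, at an adjusted p of 0.097 without inosine 2, 0.063 without inosine 3 and 0.053 without control 2.

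In the list for hormone and transcriptional control of glucose output, DESeq2 called 3 higher and 1 lower of 38 genes, against 1.96% of all genes it tested, while edgeR called 0, with 5 higher and 3 lower at an unadjusted p under 0.05. Over the omissions of 1 library the DESeq2 count of 4 ran from 2 without control 3 to 8 without control 1, and edgeR called 1, Ppargc1b, without control 1 and 0 otherwise. Hnf4a, the nuclear receptor that maintains hepatocyte identity and is a known activator of Pck1, measured 735, 710 and 794 CPM in inosine, against 541, 489 and 495 CPM in control. The groups did not overlap, and control 1 lay near the other controls here (fold change 0.55, SE 0.10, edgeR adjusted p = 0.087, DESeq2 adjusted p = 2.7e-05). Akt1, a kinase of insulin signalling, measured 76.5, 77.9 and 75.3 CPM in inosine, against 52.5, 56.1 and 59.3 CPM in control (fold change 0.45, SE 0.07, edgeR adjusted p = 0.083, DESeq2 adjusted p = 0.0032). Foxa3, a forkhead factor of hepatocytes, was at 0.56 (SE 0.13, edgeR adjusted p = 0.15, DESeq2 adjusted p = 0.019). DESeq2 called Hnf4a and Akt1 in all 6 omissions, and Foxa3 in 2, without inosine 1 and without control 1 (highest adjusted p = 0.22).

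Ppargc1b, a coactivator of mitochondrial and lipid genes, was the lower one. It measured 6.75, 7.79 and 9.10 CPM in inosine, against 11.3, 18.5 and 23.9 CPM in control. The groups were apart, with control 1 nearest to inosine (fold change -1.18, SE 0.26, edgeR adjusted p = 0.14, DESeq2 adjusted p = 0.0011), and without control 1 edgeR called it at -1.42 (adjusted p = 0.035). The DESeq2 call was lost without control 3 (adjusted p = 0.088). Per2, a clock repressor, was the gene DESeq2 called in the clock and glucocorticoid list, at 0.61 (SE 0.07, edgeR adjusted p = 0.053, DESeq2 adjusted p = 2.7e-06), and edgeR called it without control 1 (adjusted p = 0.035). DESeq2 called Per2 in all 6 omissions. Over the omissions of 1 library, genes other than Per2 were called in this list of 20 genes only without control 1. Without it edgeR called 5, against 0 with all libraries, and DESeq2 called 10, against 1. Over all genes tested, leaving out control 1 moved the share called from 0.00811% to 0.449% in edgeR and from 1.96% to 4.85% in DESeq2. Other omissions moved the DESeq2 count as well, as from 215 genes with all libraries to 114 without control 2. The 5 that edgeR called in the list were Per2, Cry1, Nr1d1, Dbp and Fkbp5, of which those other than Per2 were chosen after their values were seen.

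**Figure D4:**
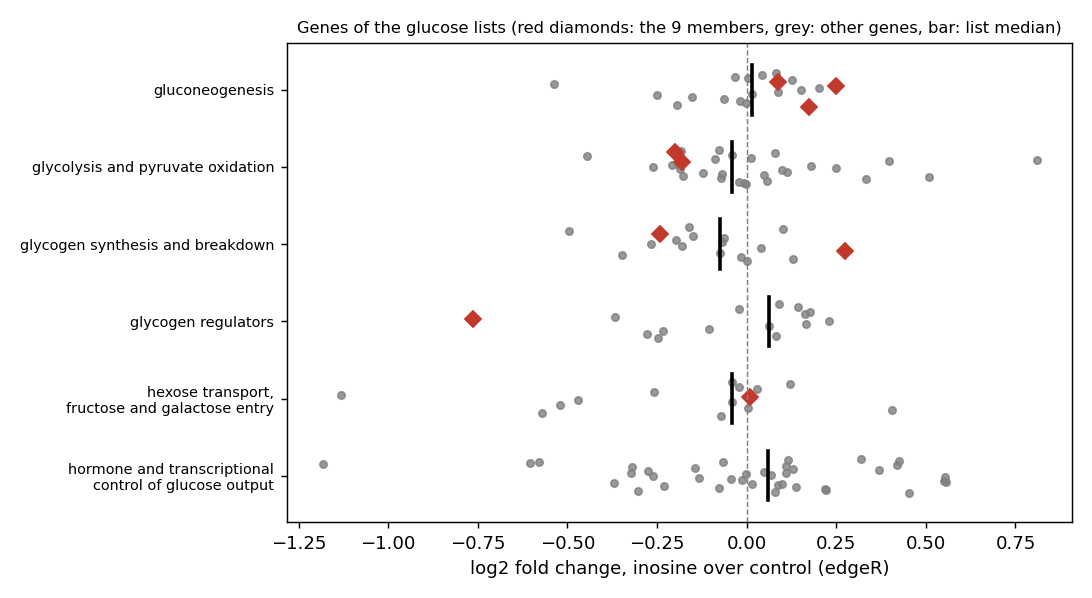
log2 fold change of inosine over control from edgeR (horizontal axis) for the genes of 6 glucose lists; red diamonds are the 9 genes, grey points the others and black bars the list medians. The medians lie between -0.07 and 0.06, and Ppp1r3c stands far left of the other glycogen regulators at -0.76.

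By the pathway annotation in the authors' table, 6 of the 9 genes belong to glucagon signalling, namely Pck1, Fbp1, Gys2, Pygl, Slc2a2 and Pfkfb1. Of 77 tested genes with that annotation, edgeR called 0 and DESeq2 called 1, Akt1. At an unadjusted edgeR p under 0.05 were 10 higher and 3 lower, against 7.21% higher and 7.26% lower over all genes tested. Their median fold change was -0.04. Insulin signalling in the same annotation also holds 6 of the 9, namely Pck1, Fbp1, Pklr, Gys2, Pygl and Ppp1r3c. Of its 107 tested genes edgeR called 0, and DESeq2 called 2 higher and 1 lower. At an unadjusted edgeR p under 0.05 it had 10 higher and 7 lower, and its median fold change was 0.02. The genes whose pattern over the 6 libraries was most like that of Gys2, among 7695 genes with a mean of at least 10 CPM, were Polr2m, Slc22a23 and Socs6. Their centred log2 CPM differed from that of Gys2 by a root mean square of 0.035, 0.053 and 0.054, against a median of 0.20 over the genes compared.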

How the data were processed

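The authors deposited 1 table of the whole series with expected counts per gene, estimated read counts as RSEM writes them; the submitters' processing notes name Bowtie2, RSEM and GRCm39 and give no versions. The authors also deposited TPM and FPKM per library, per the file headers; TPM served for levels between genes, and FPKM was not used. A log2 fold change with a DESeq2 p-value and q-value per gene was deposited by the authors, and its sign runs as inosine over control, from the group means beside it. The sources used here do not state filters or strandedness. The table held 16375 genes and 1 line without content; 0 per-sample columns were left unmapped.

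Counts, 89.8% to 90.3% whole, were rounded. The main test was edgeR 4.0.16 in R 4.3.3 (glmQLFit, glmQLFTest, TMM, default low-count filter on a count of 10), with all 6 libraries and the group as the only term, two-sided, adjusted over 12326 genes by Benjamini-Hochberg with a threshold of 0.05. SE is the fold change divided by the root of F, and 95% intervals use the fit's degrees of freedom. DESeq2 1.42.0 and limma 3.58.1 served as alternatives, and the tests were checked on simulated counts. Depth of 16383896 to 17505035 counts gives a floor of 3 counts, or 0.171 to 0.183 CPM; it covers counting error only, and PCR copies count like molecules. Libraries of the same group differed by more than sampling noise in every pair (chi-square per gene from 27.3 to 115).

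Groups come from the library titles. The 9 genes and the lists were chosen with earlier results of these data known, so no p is adjusted over them alone and no list is tested. Genes named outside the 9 are those past the threshold in edgeR or DESeq2 in a list (up to 4 by smallest p), otherwise the 2 of smallest edgeR p, and the 3 genes nearest in pattern to the member of smallest p. Any other is said to be chosen after its values were seen.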

Additional observations from a re-analysis of the deposited data

How the results depend on the processing

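Over 19 alternative fits of each of the 9 genes (13 planned and 6 chosen after seeing the data), 161 of 171 values kept their direction and stayed outside the threshold. The 2 that passed were Pck1 in DESeq2 without control replicate 1 and Gys2 in DESeq2 without inosine replicate 3, so DESeq2 called 0 to 1 of the 9 over its omissions; every other fit called 0. Direction reversed 8 times. Pfkfb1 was 0.20 and Ppp1r3c 0.21 without control replicate 1 in edgeR, and 0.20 and 0.23 in DESeq2. Slc2a2 was -0.035 without inosine replicate 1 and -0.038 without control replicate 2 in edgeR, and -0.032 and -0.036 in DESeq2. Over the edgeR omissions Pfkfb1 ran from -0.39 to 0.20, Ppp1r3c from -1.39 to 0.21 and Slc2a2 from -0.038 to 0.036. Pck1 kept its direction but ran from 0.05 without control replicate 2 to 0.53 without control replicate 1. The cause was not tested.

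Over all genes edgeR called 1. The count was 215 with DESeq2, 9 with no low-count filter, 11 with at least 1 CPM in every library, 0 with limma on log2(TPM + 1) or log2(TPM + 0.1), 0 to 56 over the edgeR omissions (56 without control replicate 1) and over the DESeq2 omissions 216, 127 and 153 without inosine replicates 1 to 3 and 496, 114 and 130 without control replicates 1 to 3. With the replicate number as a block, edgeR called 0 of all genes and 0 of the 9. Nothing in the labels pairs libraries by number, and deviations of same-numbered libraries from their group means correlated at -0.04, -0.03 and -0.02; each inosine library correlated best with a control of another number. With 3 libraries a group, an interval that leaves out 0 did not ensure a call after adjustment. Hnf4a, at 0.55 with an interval of 0.33 to 0.78 on the log2 scale, was not called by edgeR (adjusted p = 0.087). An observed difference of that size thus went uncalled by edgeR here, while DESeq2 called it (adjusted p = 2.7e-05).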
